A study of Mus musculus with 4 samples.

Results

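The phosphorylation of eIF2alpha is set by 4 kinases and by 2 regulatory subunits that bring protein phosphatase 1 (PP1) to it. The kinases are Eif2ak1 (HRI), Eif2ak2 (PKR), Eif2ak3 (PERK) and Eif2ak4 (GCN2), and the subunits are Ppp1r15a (GADD34) and Ppp1r15b (CReP). These 6 genes were taken by name among the 20145 genes that the probes of the arrays could be matched to. Their transcripts were measured in the brown adipose tissue (BAT) of 4 male Tg mice aged 8 weeks, of which 2 received vehicle and 2 received AP by intraperitoneal injection 12 h before the tissue was taken.

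All 4 mice, the vehicle mice included, carried maP2-Fv2E-PERK on the C57/BL6N strain. This transgene places a fusion of the PERK kinase domain with an artificial dimerization domain (Fv2E) under the mouse aP2 (Fabp4) promoter. AP (AP20187) is a small molecule that joins Fv2E domains and is used to activate the fused kinase without stress in the endoplasmic reticulum (ER). The aP2 promoter is also active in monocytes and macrophages, so a response in whole tissue need not come from adipocytes. The vehicle held ethanol, PEG-400 and Tween-20 in water. The labels give an AP dose of 1 ng/g, whereas the legend of the array experiment states a higher dose, so the dose is not settled. No array of mice without the transgene was analysed here, and the diet of these mice is not given in the sources used here.

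The eIF2alpha kinases sense different stresses. HRI responds to lack of heme and to mitochondrial stress, PKR to double-stranded RNA, PERK to unfolded protein in the ER, and GCN2 to uncharged tRNA when amino acids are short. Phosphorylated eIF2alpha blocks its own exchange factor eIF2B, which lowers global translation while favouring the translation of a few mRNAs, among them that of the transcription factor ATF4; this is the integrated stress response (ISR). GADD34 is the stress-inducible subunit that closes this loop by having eIF2alpha dephosphorylated, and CReP is the subunit present without stress. The arrays measured mRNA, and neither phosphorylation nor protein of any of these genes was measured here.

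Each of the 6 genes was read by 1 probe, printed as 1 spot, and all 6 probes were well above background on all 4 arrays. Levels are given as log2 of the processed spot signal minus the 75th percentile of the same array, so that 0 is the signal at that percentile. Levels of different probes were not compared, since each probe has its own affinity. A difference between groups is the mean log2 level of AP minus that of vehicle, tested with limma over 24970 probes with Benjamini-Hochberg adjustment. The exact permutation test over the mice (two-sided), at 2 against 2, has a smallest possible p of 0.333. The labels number the mice as replicates without saying more, so p-values measure the spread between these samples only.

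The 4 arrays lay on 1 slide and were scanned in 1 run, and their log2 levels correlated at 0.972 to 0.981 across probes. The pair with the lowest correlation was the 2 vehicle mice. The vehicle arrays lay at another position along the slide than the AP arrays, so position and treatment cannot be told apart. Vehicle replicate 2 was the only array in slide column 2, and its 75th percentile signal was 158.7 against 118.5 to 127.6 on the others. What is particular to this mouse and to its array cannot be told apart either. All 10 brown adipocyte markers were well above background on every array, and Fabp4, whose promoter drives the transgene, stood between 10.43 and 10.90 in the 4 mice. Its AP minus vehicle difference was 0.05 (SE 0.25).

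Across the whole array, no probe passed an adjusted p of 0.05 (0% of 24970), with the smallest adjusted p at 0.80. At an unadjusted limma p under 0.05 there were 1515 probes, or 6.07% of those tested, and the methods' t-test, run on the same values, gave 1478 probes unadjusted and 0 after adjustment. Both AP mice lay above both vehicle mice for 18.0% of probes and below both for 20.4%. Against this, none of the 6 genes had an adjusted or an unadjusted p under 0.05. Eif2ak3 was the 1 member with both AP mice above both vehicle mice, Eif2ak2 was the 1 member with both below, and the groups overlapped for the other 4. These counts are near the shares of all probes. The mean was higher in AP for 5 members and lower for Eif2ak2, and 51.4% of the 12790 genes tested were higher in AP. The median difference of the 6 was 0.31, beside 0.01 over all genes tested.

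**Figure D1:**
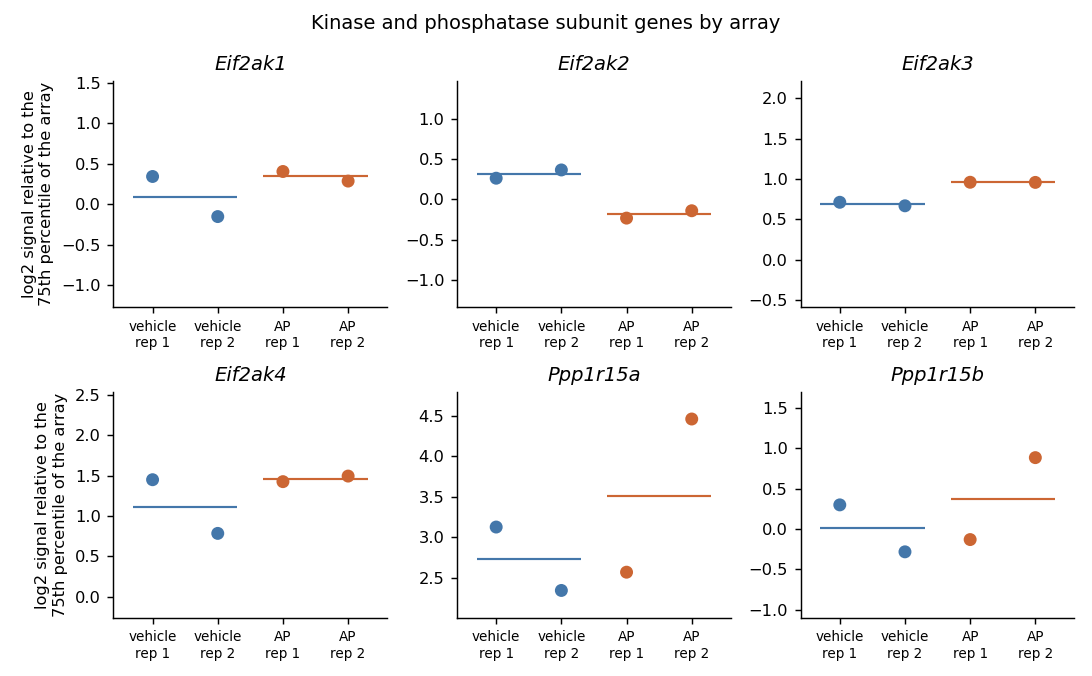
Level of each of the 6 genes in each mouse (log2 processed signal minus the 75th percentile of the array, y axis), with vehicle and AP mice as points and the mean of each group as a line. The y axes span the same range but are centred on each gene, so that the 1.90 gap between the AP mice for Ppp1r15a stands beside the close AP values of Eif2ak3.

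Ppp1r15a encodes GADD34, the inducible subunit. Its probe (A_55_P2136880, transcript NM_008654) read 3.13 and 2.34 in the vehicle mice and 2.57 and 4.46 in the AP mice. AP replicate 2 was thus the highest of the 4, whereas AP replicate 1 lay between the vehicle mice, and the groups overlapped. In processed signal the same mice stood at 1037, 803, 755 and 2614, in that order. The mean was 2.73 ± 0.56 (SD, n = 2) in vehicle and 3.51 ± 1.34 (SD, n = 2) in AP. The difference was 0.78 (SE 0.71), a 1.72-fold higher mean with a 95% interval of 0.468 to 6.32-fold, and it did not pass the test (limma p = 0.324, adjusted p = 0.84, exact permutation p = 0.667).

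The 2 AP mice differed from each other more than the groups did. Their gap for Ppp1r15a was 1.90 on the log2 scale, or 3.73-fold, and 1.17% of all probes had a gap between the AP mice as large. The vehicle mice differed by 1.72-fold in this gene, the same factor as the group means. Without AP replicate 2 the difference turned to -0.17, and without AP replicate 1 it was 1.73. The sign of the mean difference therefore rested on a single mouse.

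Ppp1r15b encodes CReP, the constitutive subunit. Its probe (A_52_P116372, NM_133819) read 0.30 and -0.28 in vehicle and -0.13 and 0.88 in AP. The order of the mice was the same as for Ppp1r15a: AP replicate 2 was highest, AP replicate 1 lay between the vehicle mice, and vehicle replicate 2 was lowest. The mean was 0.008 ± 0.41 (SD, n = 2) in vehicle and 0.38 ± 0.72 (SD, n = 2) in AP, a difference of 0.37 (SE 0.44). It did not pass the test (limma p = 0.439, adjusted p = 0.87, exact permutation p = 0.667). The gap between the AP mice was 1.02, or 2.02-fold, and 8.13% of probes had one as large. Without AP replicate 2 the difference was -0.14.

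Relative to the vehicle mean of each gene, AP replicate 2 stood at 1.73 for Ppp1r15a and at 0.88 for Ppp1r15b, while AP replicate 1 stood at -0.17 and -0.14. The 12 ISR target genes listed for comparison (Atf4, Ddit3, Trib3, Atf3, Atf5, Asns, Chac1, Sesn2, Nupr1, Cebpb, Ddit4 and Vldlr) had medians of 0.83 in AP replicate 1 and 1.31 in AP replicate 2 on the same scale, and of 0.20 and -0.20 in the vehicle mice. AP replicate 2 was the highest mouse for 8 of these 12 genes. In AP replicate 1 the median of the targets was thus above both vehicle mice, whereas both subunits were within the vehicle range. Single targets differed, since Atf4 and Cebpb were also within the vehicle range in this mouse and Atf3 was below both vehicle mice. In the authors' values both subunits were below both vehicle mice in AP replicate 1.

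**Figure D2:**
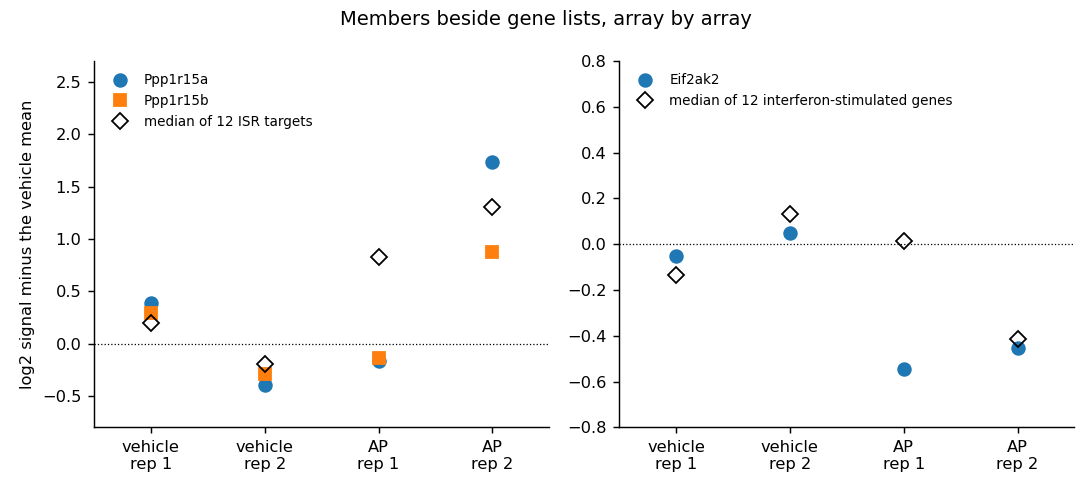
Log2 level of each array minus the vehicle mean (y axis) for the phosphatase subunits Ppp1r15a and Ppp1r15b with the median of 12 ISR target genes, and for the kinase Eif2ak2 with the median of 12 interferon-stimulated genes. In AP replicate 1 the median of the ISR targets stands at 0.83 and the subunits at -0.17 and -0.14. Eif2ak2 is at -0.55 and -0.45 in the AP mice.

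Since GADD34 transcription is known to be driven by the ATF4 pathway, the promoter of Ppp1r15a was read from RefSeq (build GRCm38.p6, chr7:45526269-45526518, minus strand, bases -250 to -1 from the annotated start). The sequence is shown because it holds a full cyclic AMP response element (CRE, TGACGTCA), the palindrome that factors of the ATF and CREB families bind, from -12 to -5. Capitals mark this CRE and, from -220 to -212, a match to the core of the interferon-stimulated response element (ISRE, GAAANNGAA).
Ppp1r15a promoter: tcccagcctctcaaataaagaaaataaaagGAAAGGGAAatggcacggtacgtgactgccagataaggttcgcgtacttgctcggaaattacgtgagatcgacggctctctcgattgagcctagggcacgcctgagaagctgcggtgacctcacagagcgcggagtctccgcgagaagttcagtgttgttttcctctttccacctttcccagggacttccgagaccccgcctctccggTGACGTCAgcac

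Windows from 250 bases before to 50 after the start were held for 5 of the 6 members, in 6 windows, and Ppp1r15b was not among them. The CRE was present in 1 of these 6 windows, that of Ppp1r15a, and in 1.79% of 32851 windows over the genome, on either strand. The core that C/EBP and ATF4 bind as a pair (TGATGNAA) was in 0 of the 6 windows and in 3.97% of all. The ISRE core was in 2 of the 6, those of Ppp1r15a and Eif2ak2, and in 8.56% of all. A match gives the letters present in the window and was not tested for binding here.

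Among the kinases, Eif2ak2 had the largest difference and the smallest p. It encodes PKR, the double-stranded RNA sensor, which is itself an interferon-stimulated gene. Its probe (A_52_P559919, NM_011163) read 0.26 and 0.36 in the vehicle mice and -0.23 and -0.14 in the AP mice. The groups did not overlap, and the mice of a group lay within 0.10 of each other. The mean was 0.31 ± 0.07 (SD, n = 2) in vehicle and -0.19 ± 0.06 (SD, n = 2) in AP. The difference was -0.50 (SE 0.20, 95% interval -1.04 to 0.04), a 1.41-fold lower mean in AP.

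This difference did not pass the limma test (p = 0.0616, adjusted p = 0.80), and the exact permutation p was 0.333, the smallest that the design allows. Of all probes, 7.57% had a p as small and 20.6% a difference as large. When 1 mouse at a time was left out, the difference lay between -0.55 and -0.45, but this could not turn its sign, since the groups did not overlap. Both AP mice remained below both vehicle mice under each way of scaling the arrays. Beside the exact permutation p above, the unadjusted limma p in the authors' processed values was 0.0448 (adjusted p = 0.67). The difference there was -0.66, beside a median difference of -0.17 over all probes in those values. All 6 members had lower differences there than in the values scaled here, so the larger size was not particular to Eif2ak2. Beside the exact permutation p above, the methods' t-test on the values scaled here gave p = 0.0183 (adjusted p = 0.82).

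Other interferon-stimulated genes were counted beside Eif2ak2. Of 12 genes tested, 3 were higher and 9 lower in AP, 0 had an unadjusted p under 0.05 on the brighter probe of the gene, and the median difference was -0.24. Isg15, a ubiquitin-like protein induced by interferon, had the lowest value at -0.56, and its other, dimmer probe gave -0.69 with an unadjusted limma p of 0.0479. The highest value was that of Rsad2, the antiviral enzyme viperin, at 0.51. The list's median by mouse was -0.13 and 0.13 in vehicle and 0.02 and -0.41 in AP. The AP mice lay on both sides of the lower vehicle value for the list, while for Eif2ak2, and for Isg15 and Usp18 in the list, both AP mice lay below both vehicle mice. Without vehicle replicate 2 the list's median was -0.0061, and the difference of Eif2ak2 was -0.45.

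The start of the Eif2ak2 transcript is shown because its ISRE matches lie there (RefSeq, GRCm38.p6, chr17:78882529-78882558, minus strand, bases 15 to 44 from the start counted as 1). Capitals mark the 2 overlapping matches to GAAANNGAA, at bases 19 to 27 and 25 to 33.
Eif2ak2 start: ccggGAAAACGAAACAGAAgagaaccggcc

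Eif2ak3 encodes PERK, the ER stress kinase whose catalytic domain the transgene also carries. Its probe (A_55_P2048744, NM_010121) read 0.71 and 0.67 in vehicle and 0.96 and 0.96 in AP, so that both AP mice lay above both vehicle mice. The mean was 0.69 ± 0.03 (SD, n = 2) in vehicle and 0.96 ± 0.0012 (SD, n = 2) in AP, and 99.7% of probes had a larger gap between the AP mice. The difference was 0.27 (SE 0.20, 95% interval -0.26 to 0.79), and it did not pass the limma test (p = 0.238, adjusted p = 0.82), with an exact permutation p of 0.333.

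Whether the groups overlapped depended on the scaling for 3 of the kinases. Both AP mice lay above both vehicle mice for Eif2ak1 with normexp background correction, and for Eif2ak4 with the median of each array as its scale. For Eif2ak3 the change went the other way. In the authors' log2 values the vehicle mice stood at -0.59 and -0.37 and the AP mice at -0.40 and -0.35. The groups thus overlapped, and the difference was 0.11, beside a median difference of -0.17 over all probes in these values. Beside the exact permutation p above, the methods' t-test on the values scaled here gave p = 0.0065 (adjusted p = 0.73), a test that takes the spread from these 4 values alone. The files do not give the sequence of the probe, so whether it lies in the stretch that Fv2E-PERK shares with the endogenous transcript cannot be told. Signal from endogenous PERK mRNA and from the transgene cannot be told apart, in vehicle or in AP mice.

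Eif2ak4 encodes GCN2, the amino acid sensor. Its probe (A_55_P1998396, NM_013719) read 1.45 and 0.78 in vehicle and 1.42 and 1.49 in AP. Vehicle replicate 2 was low and the other 3 mice lay close together. The difference was 0.34 (SE 0.30), 1.27-fold, and did not pass the test (limma p = 0.305, adjusted p = 0.84, exact permutation p = 0.667). Without vehicle replicate 2 it was 0.010, and without vehicle replicate 1 it was 0.68.

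Eif2ak1 encodes HRI, the heme-regulated kinase. Its probe (A_51_P385773, NM_013557) read 0.34 and -0.15 in vehicle and 0.40 and 0.29 in AP, again with vehicle replicate 2 lowest and the other 3 mice together. The difference was 0.25 (SE 0.26), 1.19-fold, and did not pass the test (limma p = 0.383, adjusted p = 0.86, exact permutation p = 0.667). Without vehicle replicate 2 it was 0.0025. The higher AP means of Eif2ak1 and Eif2ak4 thus rested on this vehicle mouse. Vehicle replicate 2 was also lowest for both phosphatase subunits and for Eif2ak3, and highest for Eif2ak2. For Eif2ak3, vehicle replicate 1 was lowest instead with normexp, with quantile normalization and in the authors' values. For both subunits, AP replicate 1 was lowest in the authors' values.

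**Figure D3:**
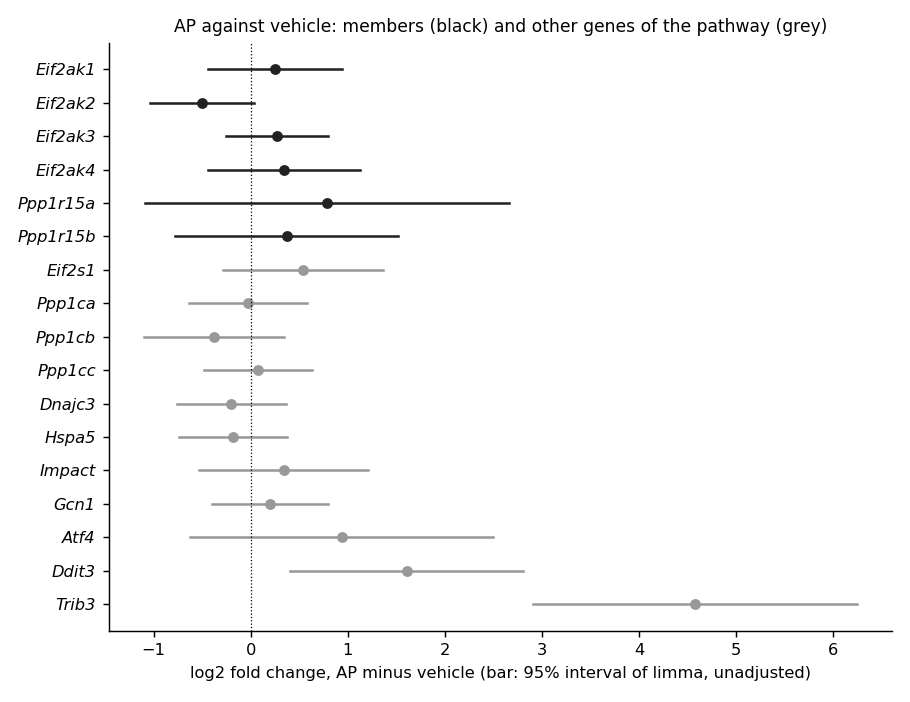
AP minus vehicle difference (x axis, log2) with its 95% limma interval for the 6 members (black) and for genes that bind them, regulate them or report their output (grey). The intervals of all 6 members include 0, with that of Eif2ak2 reaching 0.04, and Trib3 stands apart at 4.57.

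Among the substrate and the partners of these enzymes, no gene had an unadjusted p under 0.05. Of 8 subunits of eIF2 and of its exchange factor eIF2B, 7 were higher and 1 was lower in AP, and the median difference was 0.18. Eif2s1, which encodes the substrate eIF2alpha itself, was at 3.81 and 3.15 in vehicle and at 3.87 and 4.16 in AP (difference 0.54, SE 0.31). Eif2s2, the beta subunit, had the highest value at 0.70 (SE 0.38), and Eif2s3x, the gamma subunit, the lowest at -0.23. The catalytic subunits that GADD34 and CReP recruit were at -0.03 for Ppp1ca, -0.38 for Ppp1cb and 0.07 for Ppp1cc, where 3 probes for Ppp1cc ranged from -0.22 to 0.07. The signs of Ppp1ca and Ppp1cc changed with the scaling.

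Of 8 proteins that restrain or activate the kinases, 3 were higher and 5 lower in AP, 0 had an unadjusted p under 0.05, and the median was -0.17. Impact, which inhibits GCN2, had the highest value at 0.34, from 1.51 and 1.38 in vehicle and 2.18 and 1.39 in AP, and without AP replicate 1 it was -0.05. Gcn1, which GCN2 needs for its activation, was at 0.20. Dnajc3 (p58IPK), an inhibitor of PKR and PERK, was at -0.20, and Hspa5 (BiP), the ER chaperone that holds PERK inactive, was at -0.18. Tarbp2, which binds and inhibits PKR, had the lowest value at -0.24.

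The output of the kinases, read on the 12 ISR targets, had the largest median of the 6 lists. In AP 11 of 12 were higher, and the median difference was 1.04. An unadjusted limma p under 0.05 was found for 7 (Trib3, Chac1, Ddit3, Nupr1, Asns, Sesn2 and Vldlr), though none passed adjustment. Over the 12790 genes tested, 6569 were higher in AP and 772 had such a p. Trib3, a pseudokinase induced by ATF4, read 2.78 and 2.33 in vehicle and 6.26 and 8.01 in AP, a difference of 4.57. Ddit3 (CHOP), the transcription factor that itself acts on Ppp1r15a, read 2.18 and 1.86 in vehicle and 3.04 and 4.22 in AP, a difference of 1.61. Atf4 was at 0.94 (SE 0.59), with 7.49 and 6.12 in vehicle and 7.26 and 8.23 in AP, an overlap of the groups with the same order of mice as for Ppp1r15a. Atf3 had the lowest value of the list at -0.62.

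Beside these, the median difference was 0.06 over 10 ER chaperone and ER-associated degradation genes, which report unfolded protein in the ER. Of these, 7 were higher and 3 lower in AP, and 2 had an unadjusted p under 0.05, Herpud1 at 1.22 and Calr at -0.56.

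Markers of other cells differed between the mice, and their part in the values of the members was not tested. In this bulk tissue, fewer cells of a type and less RNA per cell cannot be told apart. Of 8 leukocyte markers tested, all 8 were lower in AP and all 8 were highest in vehicle replicate 2, with a summed level of 169 there against 51.2 to 61.0 in the other 3 mice. Of 6 macrophage markers tested, all 6 were lower in AP, with summed levels of 33.1 and 43.1 in vehicle and 25.2 and 25.7 in AP. Only Itgam, a bright probe of this list, had both AP mice below both vehicle mice, and the list's median relative to the vehicle mean was -0.47 and 0.47 in vehicle and -0.19 and -0.60 in AP. Of 6 white adipose tissue markers listed, 3 were tested, and all 3 were lower in AP with a median of -1.37, that of Nnat. Tcf21, Hoxc9 and Hoxc10 were not among the probes tested. Nnat read -0.40 and 3.23 in vehicle and 0.19 and -0.10 in AP, so only vehicle replicate 2 stood high and the groups overlapped. Lep (leptin) and Retn (resistin) had both AP mice below both vehicle mice. Lep read 0.04 and 1.45 in vehicle and -0.63 in both AP mice. The difference was -1.38, with an unadjusted limma p of 0.0465 (adjusted p = 0.80). The paper reports leptin as unchanged in the same comparison.

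All 9 skeletal muscle markers were highest in vehicle replicate 2, with a summed level of 33.0 in vehicle replicate 1, 600.0 in vehicle replicate 2, 395 in AP replicate 1 and 207 in AP replicate 2. In the same mouse 5 of the members were lowest and Eif2ak2 was highest, though for Eif2ak3 and both phosphatase subunits this depended on the scaling. Erythroid markers, 5 of 5 highest in vehicle replicate 1, ranged in summed level from 1273 to 2390. The summed level of the 10 brown adipocyte markers was lowest in vehicle replicate 2 at 5219, against 6345 to 7867 in the other 3 mice. Brighter probes weigh more in such sums. Single markers varied more, since Elovl3 read 6.08 and -1.07 in the vehicle mice and Dio2 read -1.78 and 3.33 in the AP mice.

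Genes whose pattern over the 4 arrays lay closest to each member were found among 12137 others by the root mean square difference of centred log2 levels. This measure grows with the spread of the gene itself, which over the 4 arrays was 0.82 (SD, log2) for Ppp1r15a, 0.45 for Ppp1r15b and 0.14 to 0.29 for the kinases. For Ppp1r15a the nearest were Cbr3, Rhbdd1 and 9130401M01Rik, at 0.148 to 0.197. For Ppp1r15b the nearest were Nolc1, Chd2 and S100pbp, at 0.043 to 0.060. Among the kinases, Fastkd1, Rock2 and Obp1a lay within 0.018 of Eif2ak2, and Trabd, Fmr1 and Itpkc within 0.013 of Eif2ak3. Susd5, Pex3 and Eci1 lay within 0.010 of Eif2ak4, and Pex10, Stim1 and Mcoln1 within 0.011 of Eif2ak1. None of these neighbours is an ISR or interferon list gene, but these lists hold only 12 tested genes each beside 12137 searched. Their absence thus says little about the members, and with 4 arrays such likeness is a description only.

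**Figure D4:**
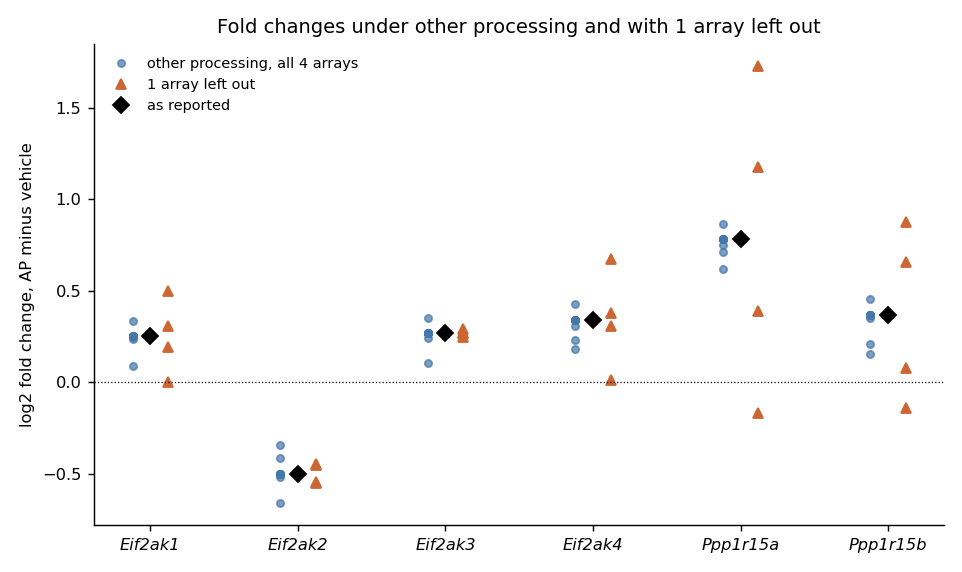
AP minus vehicle difference (y axis, log2) of each member (x axis) as reported, under other processing with all 4 arrays, and with 1 array left out. Eif2ak2 lies below 0 throughout, and Eif2ak1, Eif2ak3 and Eif2ak4 above 0, with Eif2ak1 as low as 0.0025 and Eif2ak4 as low as 0.010. Ppp1r15a spans -0.17 to 1.73 and Ppp1r15b -0.14 to 0.88 when an array is left out. Leaving out an array cannot turn the sign where the groups do not overlap, as for Eif2ak2 and Eif2ak3.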

How the data were processed

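Total RNA of BAT was labelled with Cy3 and hybridised to 1-colour Agilent SurePrint G3 Mouse arrays, and the authors extracted spots with Feature Extraction 10.7.1.1, per the labels. The deposited scanner files give processed signal as background-corrected intensity, and the deposited value table gives log2 values that the authors normalized in a way not given in the sources used here. Here, each array was scaled by its 75th percentile over 59305 non-control spots, log2 was taken, and spots of a probe were averaged. Probes were named through RefSeq accessions (26582 of 55681), and the probe with the highest mean signal stood for its gene. The 24970 probes that both mice of at least 1 group measured well above background were tested with limma 3.58.1 in R 4.3.3 (lmFit and eBayes, two-sided, Benjamini-Hochberg), and the script was tested on simulated data. The number of arrays limits the precision. Named beside the members were the highest and lowest gene of each list, genes with an unadjusted p under 0.05, direct partners, Fabp4 and the 3 nearest neighbours. Members and lists were chosen with earlier results of these data known. Same-numbered mice did not deviate together (r = -0.13), so the reported fit holds no pairing. Alternatives were normexp, quantile or median scaling, other filters, the variance trend, the methods' t-test, the authors' log2 values, the replicate block and each mouse left out.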

Additional observations from a re-analysis of the deposited data

How the results depend on the processing

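The SE of the members' differences, 0.20 to 0.71 on the log2 scale, limits what 2 mice a group can show. No probe was called under any of the alternatives. The count at an unadjusted p under 0.05 was 1515 of 24970, 2610 of 55666 when dim probes were kept, 1003 without AP replicate 1 and up to 2177 with another mouse left out. The replicate numbers were not shown to pair the mice. With the replicate block 0 probes were called and 1227 had an unadjusted p under 0.05, and with the crossed pairing, chosen after seeing the data, 0 were called and 1567 had such a p. Of 84 differences of the members under the alternatives, 82 kept direction. The exceptions were Ppp1r15a at -0.17 and Ppp1r15b at -0.14, both without AP replicate 2. The filters, the variance trend, the replicate block, the t-test and the mean of a gene's probes could not move a member's difference. The ranges with all mice thus come from the scalings, normexp and the authors' values alone. Over the 10 alternatives with all mice, Eif2ak1 ranged from 0.09 to 0.34, Eif2ak2 from -0.66 to -0.34, Eif2ak3 from 0.11 to 0.35, Eif2ak4 from 0.18 to 0.43, Ppp1r15a from 0.62 to 0.87 and Ppp1r15b from 0.16 to 0.45. Leaving out 1 mouse, they ranged from 0.0025 to 0.50 for Eif2ak1, -0.55 to -0.45 for Eif2ak2, 0.25 to 0.29 for Eif2ak3, 0.010 to 0.68 for Eif2ak4, -0.17 to 1.73 for Ppp1r15a and -0.14 to 0.88 for Ppp1r15b. The authors' log2 values, whose median difference over all probes was -0.17, gave list medians of -0.19 for PP1 catalytic subunits, -0.33 for kinase regulators and -0.11 for ER chaperone genes. With a mouse left out, list medians ranged from -0.021 to 0.45 for eIF2 and eIF2B, -0.20 to 0.14 for PP1, -0.25 to 0.056 for kinase regulators, -0.12 to 0.24 for ER chaperone genes and -0.41 to 0.015 for interferon-stimulated genes, and from 0.82 to 1.31 for ISR targets. Signs turned for Fabp4 (-0.11 in the authors' values, -0.18 to 0.29 with a mouse left out), Impact (-0.052 to 0.73 with a mouse left out), Ppp1ca (0.056 with each array's median, -0.20 to 0.14 with a mouse left out) and Ppp1cc (-0.021 with normexp, -0.089 in the authors' values, -0.013 to 0.16 with a mouse left out); the cause was not tested. Normexp used the median spot signal. Slide and scan as a block were not run, since there was 1 of each.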
